A study of Mus musculus with 5 samples.

Results

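The genes described here are 40 interferon-stimulated genes, among them guanylate-binding proteins (GBPs). They were listed by name from what is known of the interferon response, at a time when earlier results of these data were known. By role they were grouped into regulators, sensors of foreign nucleic acid, antiviral effectors, GTPases and antigen-processing genes. Of the 40, 39 were measured by a transcript cluster (the probes that an array holds for 1 transcript) whose annotation names that gene alone, out of 22184 genes named in this way. The remaining one, Gbp2, is on a transcript cluster that also names Gbp2b. No member had more than 1 such cluster.

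RNA of 5 T helper cultures was hybridised to Affymetrix Mouse Gene 2.0 ST arrays, 1 array for each. Beside Th1 and Th2 cells these were Th9 cells of 3 kinds: Th9 IL-4+TGF-β (called classic Th9 here), Th9 IL-4+IL-1β (called IL-1β Th9), and those given both additions, Th9 IL-4+TGF-β+IL-1β (called combined Th9). Naive CD4+ CD62L+ T cells came from spleens of male and female mice, 6 to 8 weeks old, that carry a TRP-1-specific T cell receptor transgene and the alleles Rag1 tm1Mom and Tyrp1 B-w. They were cultured for 3 days with TRP-1 peptide and irradiated, T cell-depleted splenic antigen-presenting cells (APCs) of C57BL/6 mice, and no sort before RNA extraction is described. The Th1 medium held IL-12 at 5 ng/ml, IL-2 at 100 U/ml and, at 10 μg/ml, an antibody against IL-4. The other 4 media, called IL-4 media here, all held IL-4 at 10 ng/ml and, at 10 μg/ml, an antibody against IFN-γ. To these the Th2 medium added IL-2 (100 U/ml), the classic Th9 medium TGF-β (1 ng/ml), the IL-1β Th9 medium IL-1β (10 ng/ml), and the combined Th9 medium both cytokines at these doses. The purpose of the study was to compare Th9 cells raised with IL-1β in place of TGF-β with the classic ones.

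Interferons are secreted proteins that warn cells of infection. Type I interferons signal through the receptor IFNAR to a complex with the subunits STAT2 and IRF9, which binds a DNA element called ISRE. IFN-γ, the signature cytokine of Th1 cells, signals through IFNGR, JAK1 and JAK2, and many of its target genes carry an element called GAS. Both routes switch on a wide and overlapping set of genes that block viral replication, attack vacuoles holding microbes and raise antigen presentation.

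Values below are log2 expression values as deposited, and a difference of 1 between arrays is 2-fold. As each condition has 1 array there is no replicate error and no test, and no p-value is given. A pair of scales is given instead, and neither measures how far cultures of the same condition vary. The first is the share of all 22184 genes that pass the same threshold. The second is the spread of 1106 olfactory receptor genes, which T cells are not known to use: the SD of their differences was 0.2 between Th1 and the mean of the IL-4 arrays and at most 0.299 in the other comparisons. The 95th percentile of their levels lay between 5.33 and 5.39, and 35 of the 39 members were above it in all 5 arrays. Gbp6 and Mx1 were below it in every array, Ifitm1 was above it in 1 array and Isg15 in 4. All 9 measured T cell marker genes exceeded it in every array.

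Th1 cells stood apart in this gene group. Against the mean of the 4 IL-4 arrays, 14 of 39 members (35.9%) were at least 2-fold higher in Th1, compared with 0.825% of all genes, and 0 were 2-fold lower, compared with 0.947% of all genes. The median difference of the members was 0.75 and that of all genes 0.01. At 1.5-fold, 28 members were higher, against 2.11% of all genes. The Th1 array held the highest of the 5 values for 35 members (89.7%), against 25.5% of all genes, and for 12 members (30.8%) it exceeded each IL-4 array by 2-fold or more, against 0.536% of all genes. Th2 is the IL-4 culture that shares IL-2 with Th1, and in Th1 against Th2 alone 13 members were 2-fold higher, against 0.802% of all genes, with a median of 0.66. All these counts use the same Th1 array. The media of Th1 and the other cultures differ at once in IL-12, in IL-4, and in which cytokine was blocked by antibody. The Th9 media also differ from the Th1 medium in IL-2, which they did not hold. These factors cannot be told apart.

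**Figure D1:**
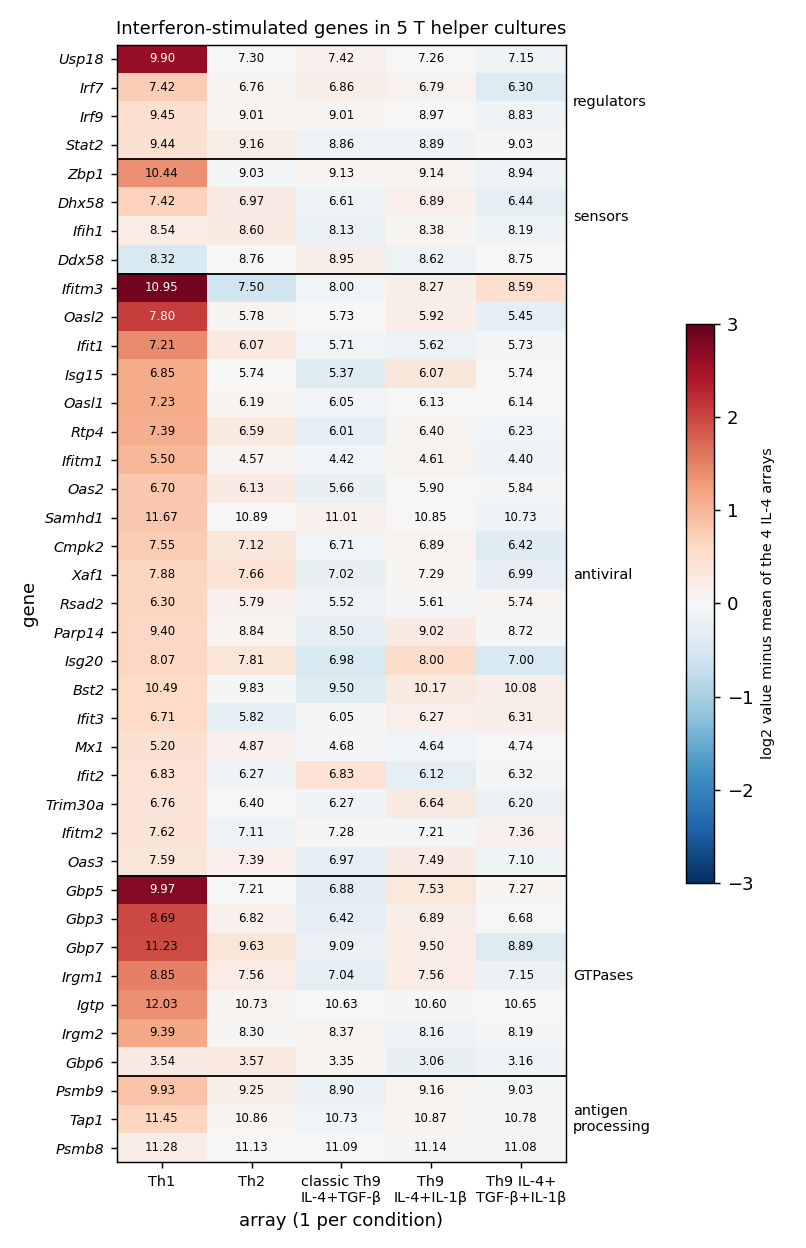
Log2 expression value (printed in each cell) of the 39 measured members in the 5 arrays, 1 per condition, grouped by role. Colour is the value minus the mean of the 4 IL-4 arrays (red, higher; blue, lower): the Th1 column is red for 38 members and blue for Ddx58.

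Promoters of 32 of the 40 members were in the RefSeq table used (GRCm38.p6, 250 bases before to 50 bases after the gene start). The letters GAAA, any 2 bases and GAAA again, the core of ISRE, were searched on both strands, as were the letters TTCNNNGAA of GAS, which read the same on both strands. The ISRE letters occurred in 19 of the 32 members (59.4%) and in 3.99% of 27025 genes. The GAS letters occurred in 10 members (31.2%) and in 9.55% of all genes. Both were present in 6 members (18.8%) and in 0.614% of all genes. All 7 GTPase genes with a promoter in the table (Gbp2 included) held the ISRE letters and 4 of them the GAS letters. The numbers were 9 and 5 of 17 antiviral genes, 0 and 1 of 3 antigen-processing genes, 1 and 0 of 3 regulators and 2 and 0 of 2 sensors. Those 2 sensors, Ifih1 and Ddx58, had Th1 differences of 0.22 and -0.45. Among members 2-fold higher in Th1, 9 of 11 promoters held the ISRE letters and 5 of 11 the GAS letters, and among the other measured members 9 of 20 and 5 of 20. A match is a description of the sequence and was not tested for binding.

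**Figure D2:**
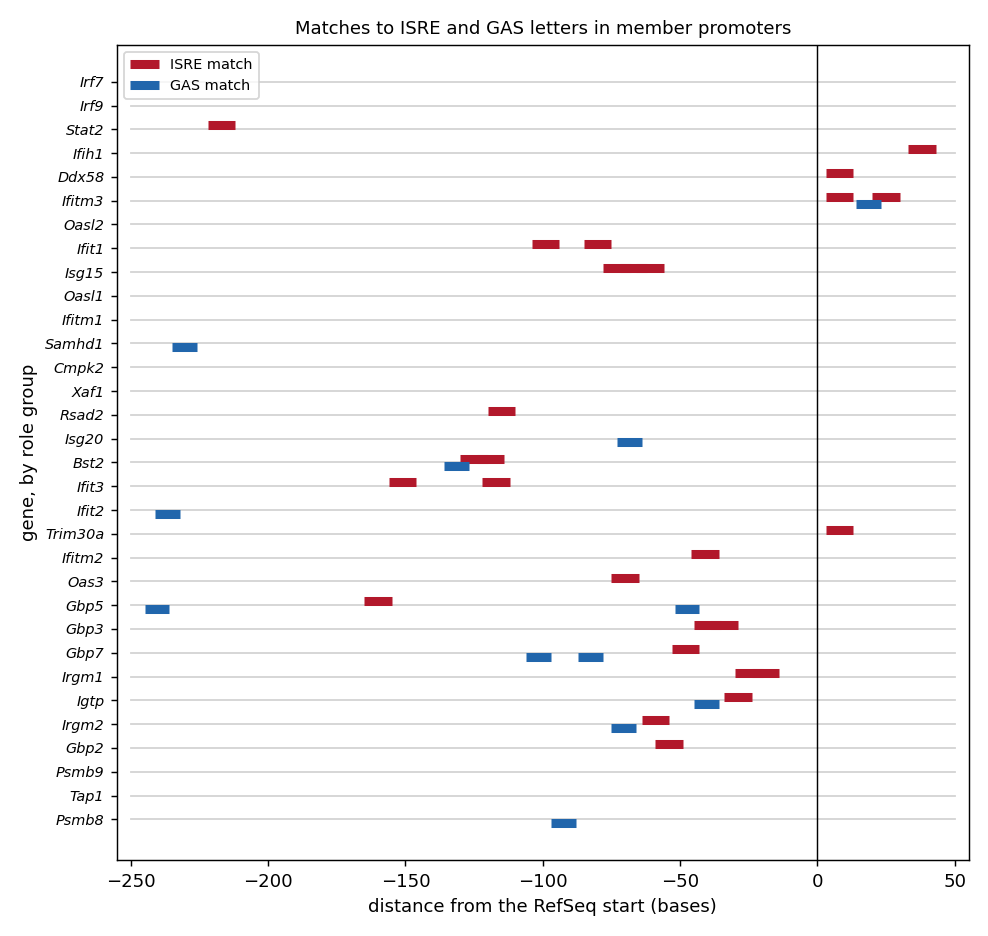
Positions of ISRE (red) and GAS (blue) letters in the promoters of 32 members, as distance in bases from the RefSeq start; each grey line is 1 promoter, 250 bases before to 50 after the start, grouped by role and ordered within a role by the Th1 difference, with Gbp2, which has no value, last of the GTPases. All 7 GTPase promoters and the 2 sensor promoters carry a red mark, and the 3 antigen-processing promoters carry none.

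The GTPases formed the group with the highest median difference between Th1 and the IL-4 arrays, 1.52, with 6 of 7 measured genes at least 2-fold higher. GBPs and immunity-related GTPases are known to gather on vacuoles that hold microbes and to help break them open. Gbp5, a GBP also known to promote inflammasome assembly, had a value of 9.97 in Th1, 7.21 in Th2, 6.88 in classic Th9, 7.53 in IL-1β Th9 and 7.27 in combined Th9 cells. The IL-4 arrays were spread over 0.64, and the Th1 array was above their mean by 2.75 on the log2 scale, or 6.73-fold. Gbp3, of the same family, was at 8.69 in Th1 and at 6.82, 6.42, 6.89 and 6.68 in Th2, classic Th9, IL-1β Th9 and combined Th9 cells, an order of arrays kept in the lists below. Its difference was 1.99, or 3.97-fold. Gbp7 was at 11.23 in Th1 and at 9.63, 9.09, 9.50 and 8.89 in the IL-4 arrays (difference 1.95). In this gene the IL-4 arrays were spread over 0.73, with both TGF-β cultures lowest.

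The immunity-related GTPases showed smaller differences in the same direction. Irgm1, which is known in mice to keep other GTPases of the family off the host's own membranes, was at 8.85 in Th1 and at 7.56, 7.04, 7.56 and 7.15 in the IL-4 arrays (difference 1.52). Igtp, which encodes Irgm3, was at 12.03 in Th1 and at 10.73, 10.63, 10.60 and 10.65 in the IL-4 arrays. The IL-4 arrays agreed within 0.12 and Th1 was 2.59-fold above their mean. Irgm2 was at 9.39 in Th1 and at 8.30, 8.37, 8.16 and 8.19 elsewhere (difference 1.13), with Th1 1.01 above the nearest array. Gbp6 was the exception in this group, with values of 3.54, 3.57, 3.35, 3.06 and 3.16 that lay in the range of the olfactory receptor genes and showed no gap between Th1 and Th2.

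The promoters of 4 of these GTPases are shown because they hold both kinds of letters. Capitals mark the matches. Gbp5 was picked by a rule (the GTPase with both elements and the widest Th1 difference), while Gbp7, Igtp and Irgm2 were added after their values and matches had been seen. The sequences run 5′ to 3′ up to the last base before the gene start and come from RefSeq, build GRCm38.p6: Gbp5 at chr3:142496684-142496933 (plus strand), Gbp7 at chr3:142530216-142530335 (plus), Igtp at chr11:58199456-58199555 (plus) and Irgm2 at chr11:58214877-58214976 (plus).
Gbp5: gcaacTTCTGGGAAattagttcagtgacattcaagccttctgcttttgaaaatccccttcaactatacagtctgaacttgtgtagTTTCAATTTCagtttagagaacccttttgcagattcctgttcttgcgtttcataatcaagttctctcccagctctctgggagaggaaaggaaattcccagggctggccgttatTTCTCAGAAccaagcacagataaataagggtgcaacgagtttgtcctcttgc
Gbp7: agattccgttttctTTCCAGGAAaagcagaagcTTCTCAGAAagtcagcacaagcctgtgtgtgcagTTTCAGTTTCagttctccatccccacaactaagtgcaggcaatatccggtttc
Igtp: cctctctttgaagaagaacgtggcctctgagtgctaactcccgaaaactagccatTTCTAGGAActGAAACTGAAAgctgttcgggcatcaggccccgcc
Irgm2: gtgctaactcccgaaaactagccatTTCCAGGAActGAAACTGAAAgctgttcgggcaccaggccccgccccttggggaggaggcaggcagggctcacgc
In Gbp5 the GAS letters stood 52 to 44 and 245 to 237 bases before the start, and the ISRE letters, on the minus strand, 165 to 156 bases before it. In Gbp7, GAS letters stood 106 to 98 and 87 to 79 bases before the start and ISRE letters, again on the minus strand, 53 to 44 bases before it. The 9 letters TTCTCAGAA were the same in Gbp5 and Gbp7. In Igtp and Irgm2 the GAS letters preceded the ISRE letters by 2 bases, and the ISRE match GAAACTGAAA was the same in both. When the 2 promoters were aligned without gaps, 184 of 270 bases (68.1%) were identical, so these neighbouring genes share promoter sequence and are not independent examples.

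Antiviral effectors were higher in Th1 in all 21 measured genes, with a median of 0.65 and 6 genes at least 2-fold higher. Ifitm3, a membrane protein known to stop the fusion of viruses with the cell, had the widest difference of all members, 2.86 or 7.28-fold. It was at 10.95 in Th1, 7.50 in Th2, 8.0 in classic Th9, 8.27 in IL-1β Th9 and 8.59 in combined Th9 cells, so that the IL-4 arrays themselves were spread over 1.09. Its relatives Ifitm1 and Ifitm2 are its neighbours on chromosome 7. Ifitm1 was at 5.50 in Th1 and at 4.57, 4.42, 4.61 and 4.40 in the IL-4 arrays, a difference of 1.0 that fell just short of 2-fold before rounding, whereas Ifitm2 differed by 0.38.

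The oligoadenylate synthetase family includes enzymes that make the messenger that activates RNase L. The members of this family had unlike differences. Oasl2 was at 7.80 in Th1 and at 5.78, 5.73, 5.92 and 5.45 in the IL-4 arrays (difference 2.09, 4.24-fold). Oasl1, its neighbour, differed by 1.10, Oas2 by 0.82 and Oas3 by 0.35. Ifit1, whose protein binds viral RNA that lacks the host's cap methylation, was at 7.21 in Th1 and at 6.07, 5.71, 5.62 and 5.73 in the IL-4 arrays (difference 1.43). The related Ifit3 and Ifit2 differed by 0.60 and 0.44, and Ifit2 was as high in classic Th9 cells (6.83) as in Th1 cells (6.83). Isg15, a ubiquitin-like protein that is joined to other proteins during the interferon response, was at 6.85 in Th1 and at 5.74, 5.37, 6.07 and 5.74 in the IL-4 arrays (difference 1.12). Rtp4, a receptor transporter protein, was the last gene inside the 2-fold threshold, at 1.08.

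The other antiviral genes were under 2-fold. Samhd1, which degrades the nucleotides that viruses need for DNA synthesis, was at 11.67 in Th1 and at 10.89, 11.01, 10.85 and 10.73 in the IL-4 arrays, with Th1 0.66 above the nearest array. Rsad2, which encodes viperin, was at 6.30 in Th1 and at 5.79, 5.52, 5.61 and 5.74 elsewhere. Its neighbour Cmpk2, a mitochondrial nucleotide kinase, was at 7.55 in Th1 and at 7.12, 6.71, 6.89 and 6.42 in the IL-4 arrays. In both genes Th1 was above every IL-4 array, by 0.52 and 0.43. Mx1, a dynamin-like GTPase that RefSeq annotates as a transcribed pseudogene in the reference mouse genome, stayed in the range of the olfactory receptor genes at 5.20, 4.87, 4.68, 4.64 and 4.74. The remaining differences were 0.65 for Xaf1, a factor that promotes apoptosis, 0.63 for Parp14, an ADP-ribosyltransferase, 0.62 for Isg20, 0.60 for Bst2 and 0.39 for Trim30a.

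For Ifitm3 the match lies after the gene start, so the first 30 bases of the transcribed strand are shown, at chr7:141010715-141010744 (minus strand, GRCm38.p6), and for Isg15 the 100 bases before the start, at chr4:156200819-156200918 (minus strand). Ifitm3 was picked by the rule as the antiviral gene with both elements and the widest Th1 difference, and Isg15 was added after its matches had been seen.
Ifitm3: agGAAAAGGAAAcTTCTGAGAAACCGAAAc
Isg15: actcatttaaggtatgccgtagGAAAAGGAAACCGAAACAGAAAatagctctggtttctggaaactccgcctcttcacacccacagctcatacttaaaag
Ifitm3 held ISRE letters at bases 3 to 12 and 20 to 29 after the start and GAS letters at bases 14 to 22, which overlap the latter match by 3 bases. Isg15 held 3 overlapping ISRE matches between 78 and 57 bases before the start, and no GAS letters in the window. Oasl2 had the widest Th1 difference of the members whose window held neither set of letters.

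Of the regulators, Usp18 stood apart. This protease removes ISG15 from proteins and blocks the type I receptor as a feedback inhibitor. It was at 9.90 in Th1 and at 7.30, 7.42, 7.26 and 7.15 in the IL-4 arrays, so that Th1 was 6.14-fold above an IL-4 band only 0.27 wide. The transcription factors changed less: Irf7, the factor that amplifies type I interferon production, differed by 0.75, and the ISRE-binding subunits Irf9 and Stat2 by 0.49 and 0.46, none of them reaching 2-fold.

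The sensors differed in direction, with a median of 0.45. Zbp1, which senses Z-form nucleic acid and can trigger cell death, was at 10.44 in Th1 and at 9.03, 9.13, 9.14 and 8.94 in the IL-4 arrays (difference 1.38). Of the 3 RIG-I-like receptors of viral RNA, Dhx58 (LGP2) was also highest in Th1, at 7.42 against 6.97, 6.61, 6.89 and 6.44 (difference 0.69). Ifih1 (MDA5) was at 8.54 in Th1 and at 8.60, 8.13, 8.38 and 8.19 in the IL-4 arrays, with Th2 highest. Ddx58 (RIG-I) was the single member with a lower value in Th1 than the mean of the IL-4 arrays, at 8.32 against 8.76, 8.95, 8.62 and 8.75 (difference -0.45).

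The antigen-processing genes differed by less than 2-fold. Tap1, a subunit of the peptide transporter that loads class I molecules, was at 11.45 in Th1 and at 10.86, 10.73, 10.87 and 10.78 in the IL-4 arrays. The immunoproteasome subunit Psmb8 was at 11.28 in Th1 and at 11.13, 11.09, 11.14 and 11.08, a difference of 0.17, and its partner Psmb9 differed by 0.84. These 3 genes lie side by side on chromosome 17, with Psmb9 and Psmb8 on either side of Tap1. Among 18 measured genes of a longer class I list, 0 were 2-fold higher in Th1 and the median was 0.13, with H2-Q4, a class I heavy chain gene, the most different (0.63).

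**Figure D3:**
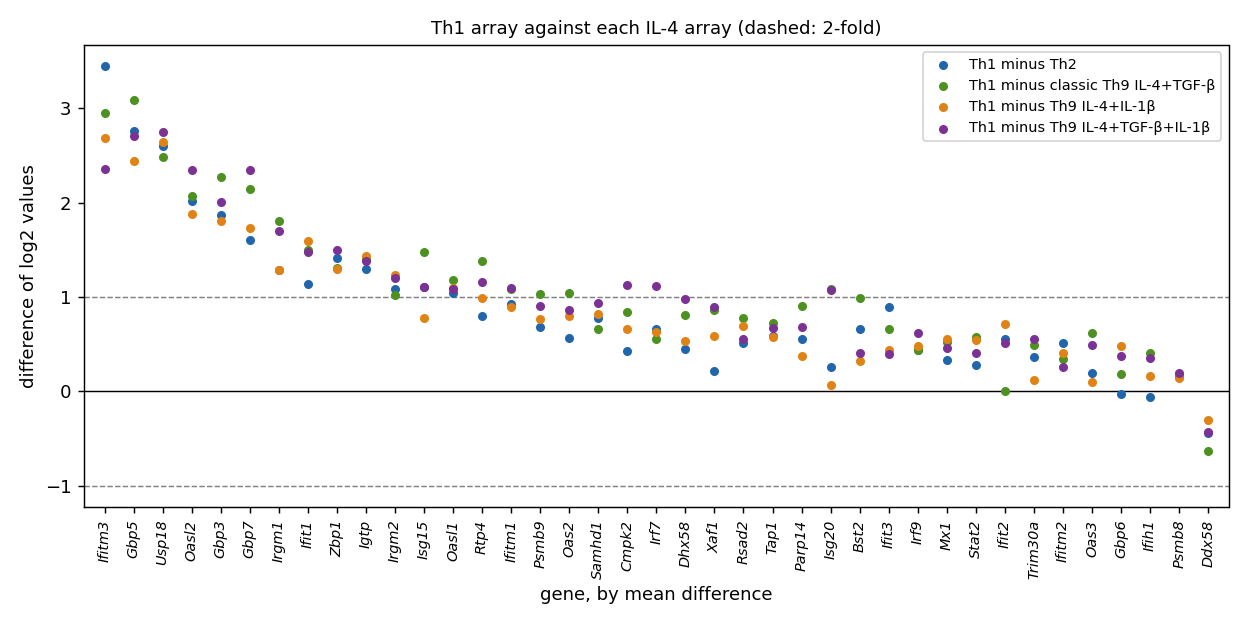
Difference of log2 values between the Th1 array and each of the 4 IL-4 arrays for the 39 measured members, ordered by the mean difference; each point is 1 pair of arrays, and the dashed lines mark 2-fold. All 4 points lie above the upper dashed line for 12 genes, from Ifitm3 to Irgm2 and Oasl1, and all 4 lie below 0 for Ddx58.

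Genes that act upstream of the members were read next. Their part in the member differences was not tested. Ifng was at 11.11 in Th1 and at 6.78, 6.54, 6.68 and 6.74 in the IL-4 arrays, a difference of 4.43. It was the 1 gene of 17 measured interferon genes that was 2-fold higher, and the median of the 17 was 0.02. Of 6 receptor genes, Ifngr2, the signalling chain of the IFN-γ receptor, was 2-fold lower in Th1, at 8.55 against 10.30, 10.25, 10.04 and 10.08 (difference -1.62). Ifngr1, the ligand-binding chain, differed by 0.43, and Ifnar1, Ifnar2, Il10rb and Ifnlr1 by -0.29, -0.09, -0.21 and 0.05. Of 18 other signalling genes, Jak2, the kinase bound to IFNGR2, was lower in Th1 (difference -1.13), and the transcription factors Irf1 and Irf8 were higher. Irf1 was at 9.92 in Th1 and at 8.62, 8.51, 8.76 and 8.56 in the IL-4 arrays, and Irf8 was at 11.06 against 9.68, 9.21, 9.51 and 9.07. The other 15 signalling genes, Jak1, Tyk2 and Socs1 among them, were within 2-fold.

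Interferon-induced genes outside the member list showed the same direction in part. Of 9 other GBPs and immunity-related GTPases, 4 were 2-fold higher in Th1 and 0 lower, with a median of 0.69: Iigp1 (difference 3.0), Gbp10 (1.94), Gbp11 (1.48) and Gbp4 (1.36). Of 47 further interferon-stimulated genes, 7 were 2-fold higher and 0 lower, with a median of 0.29. The widest differences were 1.80 for Ifi209 and 1.76 for Ifi204, relatives of the DNA-binding AIM2, the latter with a level under the olfactory 95th percentile in all 5 arrays. Of 8 interferon-induced chemokine and checkpoint genes, 4 were higher, among them Cxcl10, a chemokine that attracts T cells (9.51 in Th1 and 5.50, 5.51, 5.72 and 5.56 in the IL-4 arrays), and Cxcl11 (2.24), and 1 was lower, Pdcd1lg2, the gene of PD-L2 (-1.82). The median of the 8 was 0.45, and 4 of them, Pdcd1lg2 included, had differences below 0. Of 14 further genes of nucleic acid sensing or class I control, Nlrc5, the transactivator of class I genes, was higher (1.45), and the next in size was the kinase gene Ikbke (-0.56).

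**Figure D4:**
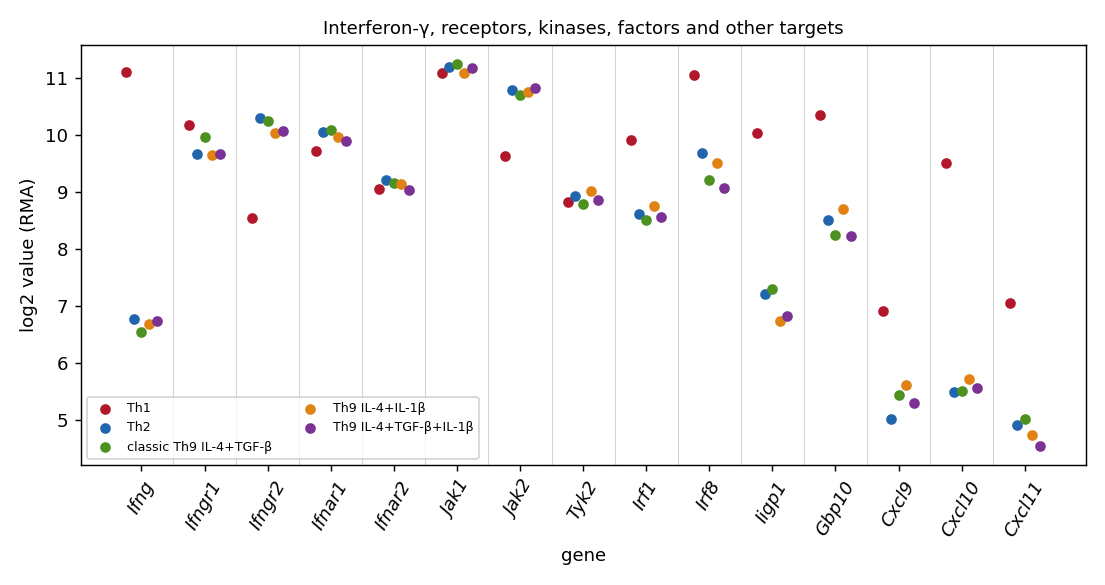
Log2 expression value of 15 genes of the interferon pathway that are not members (the ligand Ifng, receptor chains, kinases, transcription factors and other targets), with 1 point for each of the 5 arrays. Ifng, Irf1, Irf8, Iigp1, Gbp10 and the 3 chemokine genes have the Th1 point (red) well above the rest, while Ifngr2 and Jak2 have it below.

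The cultures held APCs as well as T cells, so markers of other cells were read in the same way, and in bulk RNA fewer cells of a type and less RNA per cell cannot be told apart. The mean of 9 T cell markers was 10.90 in Th1 and 10.62 to 11.00 in the IL-4 arrays. In Th1, 0 of 10 macrophage markers, 0 of 11 dendritic cell markers and 0 of 7 B cell markers were 2-fold higher, and their mean levels in Th1 were 5.78, 7.69 and 10.20, against 6.06 to 6.14, 7.62 to 7.85 and 10.23 to 10.83 in the IL-4 arrays. The macrophage marker Lyz2 (-1.38) and the dendritic cell marker Itgax (-1.65) were 2-fold lower in Th1, and 6 of 7 B cell markers had differences below 0. The lists were mixed in sign for the other cells: 4 of 10 macrophage markers (median -0.05) and 6 of 11 dendritic cell markers (median 0.08) had differences above 0. Of the markers of CD8+ T and NK cells 1 of 7 was 2-fold higher, of plasma cell markers 1 of 6 and of neutrophil markers 0 of 6. Of 6 Th1 markers, 5 were 2-fold higher in the Th1 array, Ifng included.

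Among the IL-4 arrays the members lay much closer together, and the widest ranges were 1.09 for Ifitm3, 1.02 for Isg20, 0.73 for Gbp7, 0.71 for Ifit2, 0.70 for Isg15 and 0.70 for Cmpk2. The lowest of the 4 values was in classic Th9 cells for 16 members (41.0%, against 23.1% of all genes), in combined Th9 cells for 13 (33.3%, against 21% of all genes), in IL-1β Th9 cells for 7 (17.9%, against 31.4%) and in Th2 cells for 3 (7.69%, against 24.5%). The 2 arrays with TGF-β thus held the lowest value more often than the others.

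TGF-β was compared in separate pairs of arrays, classic Th9 against Th2 and combined Th9 against IL-1β Th9, of which the first also differs in IL-2. The median of the members was -0.22 in the first pair and -0.13 in the second, and that of all genes 0.02 and 0.01. In both pairs 21 of 39 members (53.8%) were lower with TGF-β, against 25.3% of all genes, and 6 (15.4%) were higher, against 31.8% of all genes. The number lower in both was 19 of 39 (17.4% of all genes) after centring on the 75th percentile and 34 of 39 (64.9% of all genes) after centring on housekeeping genes. At 1.5-fold, 3 members were lower in the first pair (1.77% of all genes) and 2 in the second (1.79%), and the single member lower in both was Isg20, against 0.64% of all genes. Centring on housekeeping genes moved the median of all genes to -0.18 and -0.14 and raised the counts at 1.5-fold to 10 and 7, against 4.84% and 4.14% of all genes.

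Isg20, an interferon-induced exonuclease that acts on single-stranded RNA, was at 8.07 in Th1, 7.81 in Th2, 6.98 in classic Th9, 8.0 in IL-1β Th9 and 7.0 in combined Th9 cells. The 3 cultures without TGF-β lay within 0.26 of each other, and the differences of the TGF-β pairs were -0.83 and -0.99. Rtp4 (-0.59) and Xaf1 (-0.64) were lower in the first pair, with -0.18 and -0.30 in the second. Gbp7 was lower in the second (-0.60, and -0.54 in the first). Irgm1 had -0.52 and -0.41, Cmpk2 -0.41 and -0.48, and Oas3 -0.42 and -0.39. Ifitm3 went the other way, with 0.50 and 0.31, as did Ifit2, with 0.56 and 0.20. Of the 47 further interferon-stimulated genes, 28 were lower with TGF-β in both pairs and 9 higher, and of the 9 other GTPases 6 and 1.

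Markers of several other cell types were also lower in the arrays with TGF-β. The 7 B cell markers, all above the olfactory 95th percentile in each array, had medians of -0.60 and -0.26 in the 2 pairs, and their mean level was 10.83 in Th2, 10.23 in classic Th9, 10.57 in IL-1β Th9 and 10.33 in combined Th9 cells. The mean of 6 plasma cell markers, 5 of them above that percentile in every array, was 8.96, 7.23, 9.17 and 7.39 in the same order. Of the markers of CD8+ T and NK cells, 6 of 7 were lower in both pairs and 0 higher (medians -0.26 and -0.35), and of the dendritic cell markers 6 of 11 and 0 (medians -0.29 and -0.10). Macrophage markers were lower in both pairs for 4 of 10 and higher for 4, and neutrophil markers for 3 of 6 and 0. The T cell markers had medians of 0.24 and 0.19. The part of these cells in the lower member values was not tested.

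The pairs with and without IL-1β differed little in the group as a whole. The medians of the members were -0.04 without TGF-β (IL-1β Th9 against Th2) and 0.03 with it (combined Th9 against classic Th9), and 0 members were 1.5-fold lower in either pair (1.14% and 1.1% of all genes). In each pair 1 member was 1.5-fold higher, against 1.26% and 0.865% of all genes, and it was Ifitm3 both times (0.78 and 0.59), against 0.221% of all genes that were higher in both. The order of Ifitm3 over the IL-4 arrays ran from Th2 through classic Th9 and IL-1β Th9 to combined Th9 cells. Th2, with the lowest value, is also the one IL-4 culture that was given IL-2, so in the pair without TGF-β a difference by IL-1β and one by IL-2 cannot be told apart. At any size, 11 of 39 members (28.2%) were higher with IL-1β in both pairs, against 26.1% of all genes. As many, 11 (28.2%), were lower in both, against 29.3% of all genes. Among the higher ones, Bst2, the gene of tetherin, which holds budding viruses at the cell surface, had 0.34 and 0.58. Isg15 had 0.33 and 0.37, and Gbp5 0.31 and 0.39. Among the lower ones, Cmpk2 had -0.22 and -0.29, and Ddx58 -0.14 and -0.21. Among the members above the olfactory 95th percentile in every array, the most negative values were -0.44 for Ifit1 without TGF-β and -0.57 for Irf7 with it. Irf7 was at 6.76, 6.86 and 6.79 in Th2, classic Th9 and IL-1β Th9 cells, and at 6.30 where both cytokines had been added.

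**Figure D5:**
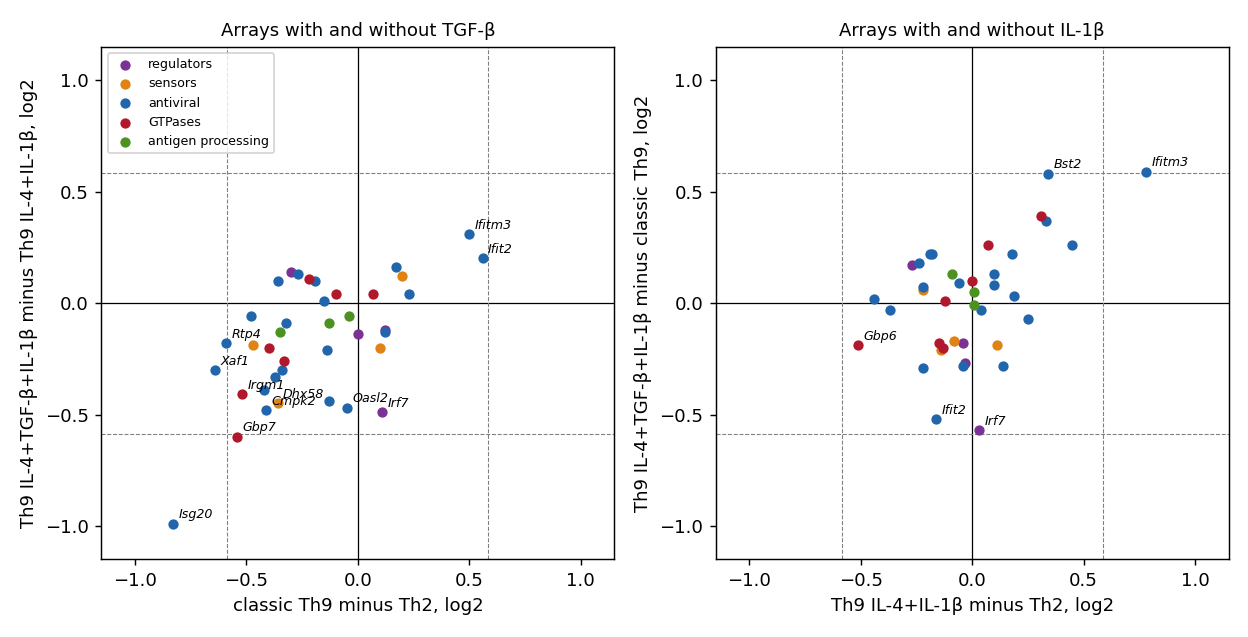
Difference of log2 values with and without TGF-β (left) and with and without IL-1β (right) for the 39 measured members, coloured by role; each axis is 1 pair of arrays and dashed lines mark 1.5-fold. On the left 21 points lie in the lower left part, with Isg20 farthest out at -0.83 and -0.99, and on the right Ifitm3 lies alone beyond both upper dashed lines.

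In the comparison of IL-1β Th9 with classic Th9 cells, 4 members were at least 1.5-fold higher (10.3%, against 2.7% of all genes) and 1 was lower (2.56%, against 2.34%), with a median of 0.18 beside -0.03 for all genes. The higher ones were Isg20 (1.02), Isg15 (0.70), Bst2 (0.66) and Gbp5 (0.64), and the lower one was Ifit2 (-0.71). Isg15 was at 5.37 in classic Th9 cells, under the olfactory 95th percentile of 5.39 in that array. Isg20 was the single member at 2-fold (2.56%, against 0.613% of all genes). After centring on housekeeping genes, which moved the median of all genes to 0.19, 11 members were higher (7.37% of all genes) and 0 lower (0.798%). These 2 arrays also enter the TGF-β and IL-1β pairs, so the values are not a further measurement of the same genes. Markers of other cells differed between them as well, with medians of 1.87 for plasma cell and 0.45 for B cell markers. The T cell markers had a median of -0.44. In these 3 lists, 6 of 6, 6 of 7 and 1 of 9 markers had differences above 0. Macrophage and dendritic cell markers had medians of 0.07 and 0.13. The part of these cells in the member differences was not tested.

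Members that are neighbours in the genome did not always have like values. Gbp5, Gbp7 and Gbp3, which follow each other on chromosome 3, differed between Th1 and the IL-4 arrays by 2.75, 1.95 and 1.99, and Igtp and Irgm2 on chromosome 11 by 1.37 and 1.13. Ifitm2, Ifitm1 and Ifitm3 on chromosome 7, in contrast, differed by 0.38, 1.0 and 2.86, and Oasl2 and Oasl1 on chromosome 5 by 2.09 and 1.10. Members of these families resemble each other in sequence, and how far probes of one gene also bind its relatives was not tested.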

How the data were processed

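The 5 arrays were grouped by their sample labels, 1 per condition. The authors summarised each transcript cluster with RMA in Affymetrix Expression Console and deposited log2 expression values. Their versions were not given in the sources used here. All 41345 clusters were used as deposited. The platform annotation gives 1 symbol for 23525 of them, several for 1816 and none for 16004, and for a gene with several clusters the one highest on average was used, giving 22184 genes. Differences of log2 values were counted at 2-fold where Th1 was compared and at 1.5-fold otherwise. There was no test, and the number of arrays limits the precision. Values in every array were given for the 12 members with the largest Th1 difference, the 6 with the widest range among the IL-4 arrays, the 4 highest and the 4 lowest by mean, and those 2-fold apart among the IL-4 arrays. The values of Irf7, Ifih1, Ddx58 and Dhx58 were added after they had been seen. Of each pathway list, genes with the largest differences, the receptors, Ifng and Irf1 were named. Further examples there (Jak1, Tyk2 and Socs1) were chosen after their values had been seen. The members and lists were chosen with earlier results of these data known. The counting was run on simulated data for Th1 against the mean of the IL-4 arrays, with noise of SD 0.2. Among 22184 genes, 200 of 200 genes changed 4-fold were counted, as was 1 unchanged gene. A 4-fold change lies far above the 2-fold threshold at this noise, so this checks the counting only. Changes near the threshold were not simulated. Python 3.11.15 with numpy 2.4.6, pandas 2.3.3 and matplotlib 3.10.9 was used. Alternatives covered scaling, dim values, clusters per gene, thresholds, left-out arrays, motif spelling and window.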

Additional observations from a re-analysis of the deposited data

Results flagged for a closer look

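The transcript cluster annotated to both Gbp2 and Gbp2b, which enters none of the comparisons above because its signal cannot be given to 1 of the 2 genes, was at 11.76 in Th1, 9.34 in Th2, 8.76 in classic Th9, 9.73 in IL-1β Th9 and 9.48 in combined Th9 cells. It drew attention as a signal outside the main measurement that stands 2.43 above the mean of the IL-4 arrays in Th1. A separate cluster annotated to Gbp2b alone differed by 0.67.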

How the results depend on the processing

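In all, 37 results were recomputed under alternatives, giving 367 values. By the measure used (within 1.5 times for a count), 329 were unchanged and 38 moved. A reversal could be recorded only for the Th1 medians and the single genes, and none of these reversed. Counts have no sign, and the medians among the IL-4 arrays were smaller than the olfactory SD. Of 132 values for single genes, 129 were unchanged, and those of Oasl2, Ifit1 and Isg15 moved, to 1.80, 1.2 and 0.92, with 16 added to the linear values. The counts of members 2-fold higher in Th1 were 14 against the mean of the IL-4 arrays and 13 against Th2. They moved with the threshold and with no other alternative run. At 1.5-fold they were 28 and 20 (2.11% and 2.55% of all genes), and at 3-fold 6 and 6. At 3-fold 6 members were above each IL-4 array. The share of all genes at 3-fold was not computed. Leaving out each IL-4 array gave 12 to 15 members 2-fold higher in Th1, with medians of 0.66 to 0.80. The small counts among the IL-4 arrays depended on scaling. Centring on housekeeping genes moved the median of all genes to -0.18 and -0.14 in the TGF-β pairs (without and with IL-1β) and to 0.19 between IL-1β Th9 and classic Th9 cells. It gave 10 and 7 members lower with TGF-β (4.84% and 4.14% of all genes), and 2 higher with IL-1β in the presence of TGF-β (1.33%). In IL-1β Th9 against classic Th9 cells it gave 11 higher (7.37%) and 0 lower (0.798%). Centring on T cell markers, added after seeing the data, moved the median of all genes to -0.23, -0.20 and 0.35, and gave 14 and 9 lower with TGF-β (6.44% and 5.8% of all genes), and 18 higher (17.1%) and 0 lower in the latter comparison, with a median of 0.56. With TGF-β in the presence of IL-1β, 1 member was lower after centring on the 75th percentile (1.26% of all genes). After a second quantile normalization 1 was lower there as well (1.48%). The latter also gave 1 lower with IL-1β in each pair (1.52% and 1.08%). Centring on array medians gave 0 higher with IL-1β in the presence of TGF-β. Adding 16 gave 0 there, 1 lower with TGF-β without IL-1β, and 2 higher in IL-1β Th9 than in classic Th9 cells. At 2-fold the counts among IL-4 arrays were 0 and 0 higher with IL-1β (0.176% and 0.126% of all genes) and 0 and 0 lower with TGF-β (0.311% and 0.293%). In IL-1β Th9 against classic Th9 cells 1 was higher (0.613%) and 0 lower (0.374%), and at 3-fold all 6 counts were 0. Beyond what fewer genes passing a stricter threshold explains, the cause was not tested. No paired analysis was possible because each condition has 1 array.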
